A study of Mus musculus with 6 samples.

Results

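TRAV9D-2 (Trav9d-2) is a V gene segment of the mouse T cell receptor α locus, and 238785 sequences that listed it as their only V gene, with a single TRAJ gene, were found among 3675237 sequences in 6 libraries. Of these, 187178 came from the WT library and 51607 from the SKG library of the Trav9 amplicon. The gene was chosen by its library share, which was lower in SKG than in WT, so that share is given as a description and was not tested.

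The libraries were made from pre-selection DP thymocytes, CD4 and CD8α double-positive cells sorted without surface TCRβ, CD69 or CD5. WT mice were BALB/c, and SKG mice carry a spontaneous hypomorphic point mutation in Zap70, the kinase that relays the TCR signal. Per the study's methods, the SKG line had been crossed to BALB/cJ and mice of both genotypes descended from F2 offspring that were then bred separately. Mice were not otherwise treated, and neither their age nor pooling of animals is given for these libraries in the sources used here. RNA was converted to cDNA and amplified from a Trav9 primer to the constant region, while the labels name genomic DNA. Each genotype is represented by 1 Trav9 library. The differences below therefore have no replicate check, a test compares these 2 libraries rather than the genotypes, and intervals cover counting error only. The lists hold receptor sequences alone, so the sorted cell type could not be checked against marker genes.

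In a DP thymocyte, the RAG recombinase joins a Trav to a Traj segment, and a further join of a more upstream Trav to a more downstream Traj can replace the first. Early joins use proximal Traj segments, those with the highest numbers next to the Trav array, and later rounds move towards the distal ones. A join is productive when it keeps the reading frame without a stop codon. In the mouse, part of the Trav array is duplicated, and Trav9 genes lie both in the copies, named with D or N, and in the unit next to the Traj segments, named without a letter.

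In assembly NCBIM37 with GENCODE annotation, Trav9d-2 (annotated as Gm5090) lies on the plus strand at chr14:53511861-53512293. Its leader exon spans 53511861-53511906 and its second exon, which encodes the variable domain, spans 53512003-53512293. It ends 1262 kb upstream of Traj61, and 82 other named Trav segments separate them. Trav9d-3 lies 1234 kb and Trav9d-4 1171 kb upstream of Traj61, whereas Trav9-2 and Trav9-4 are only 563 and 478 kb away. The last 84 bases before the recombination signal heptamer cacagtg are shown because assignment to one Trav9 gene rests on few bases here, with capitals at bases that differ from Trav9d-2 (RefSeq names, NCBIM37 plus strand).
Trav9d-2 (chr14:53512210-53512293): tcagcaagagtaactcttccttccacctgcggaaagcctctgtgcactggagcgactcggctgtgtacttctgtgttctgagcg
Trav9d-3 (chr14:53540704-53540787): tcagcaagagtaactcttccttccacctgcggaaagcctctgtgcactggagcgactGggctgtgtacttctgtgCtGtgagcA
Trav9d-4 (chr14:53603452-53603535): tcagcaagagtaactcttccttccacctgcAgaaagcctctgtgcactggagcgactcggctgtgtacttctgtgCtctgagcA
Trav9-2 (chr14:54211106-54211189): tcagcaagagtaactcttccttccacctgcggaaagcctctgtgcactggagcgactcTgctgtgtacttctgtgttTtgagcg
Trav9-4 (chr14:54296222-54296305): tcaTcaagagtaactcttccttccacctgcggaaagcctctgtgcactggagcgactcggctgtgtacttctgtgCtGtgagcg
Over this stretch Trav9d-2 differed from Trav9-2 at 2 bases, from Trav9d-4 and Trav9-4 at 3 each and from Trav9d-3 at 4. Trav9-3 is not named in the annotation used here, so its position and bases were not compared. The second exon of the segment that RefSeq names Trav9n-2 was identical to that of Trav9d-2 over all 291 bases. No sequence of either library listed TRAV9N-2 alone. It was listed with other V genes in 3663 WT and 1617 SKG sequences, of which 72 and 19 also listed TRAV9D-2. Whether some sequences assigned to TRAV9D-2 came from that copy was not tested. The assembly is of C57BL/6J and not of BALB/c.

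TRAV9D-2 made up 11.8% of the 1587177 single-TRAJ sequences of the WT library (95% Wilson interval 11.7 to 11.8%) and 6.98% of the 739267 sequences of the SKG library (6.92 to 7.04%). The SKG share was 0.592 of the WT share, which was the lowest ratio of the 6 Trav9 genes. TRAV9-2 followed at 0.856 and TRAV9-4 at 0.967. The other genes had a larger share in SKG, with 1.134 for TRAV9-3, 1.14 for TRAV9D-4 and 1.19 for TRAV9D-3. Hence the neighbours of Trav9d-2 in the same array copy, Trav9d-3 and Trav9d-4, did not share its lower ratio. The 4 libraries of the Trav11 and Trav19 amplicons held at most 1 sequence that listed TRAV9D-2.

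The gap was wider in productive than in unproductive sequences. TRAV9D-2 accounted for 12.7% of productive sequences in WT and 6.57% in SKG. Among unproductive sequences its share was 10.2% in WT and 7.93% in SKG. In numbers, WT held 3.76 times as many productive and 3.37 times as many unproductive TRAV9D-2 sequences as SKG. For each of the other Trav9 genes the order was opposite, with a WT over SKG ratio of 1.57 to 2.34 in productive and 2.34 to 2.95 in unproductive sequences. These are counts from libraries of unequal depth. The whole library held 1003777 productive sequences in WT and 516054 in SKG, and 583400 and 223213 unproductive ones. Its own ratio was thus also larger in unproductive sequences.

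**Figure D1:**
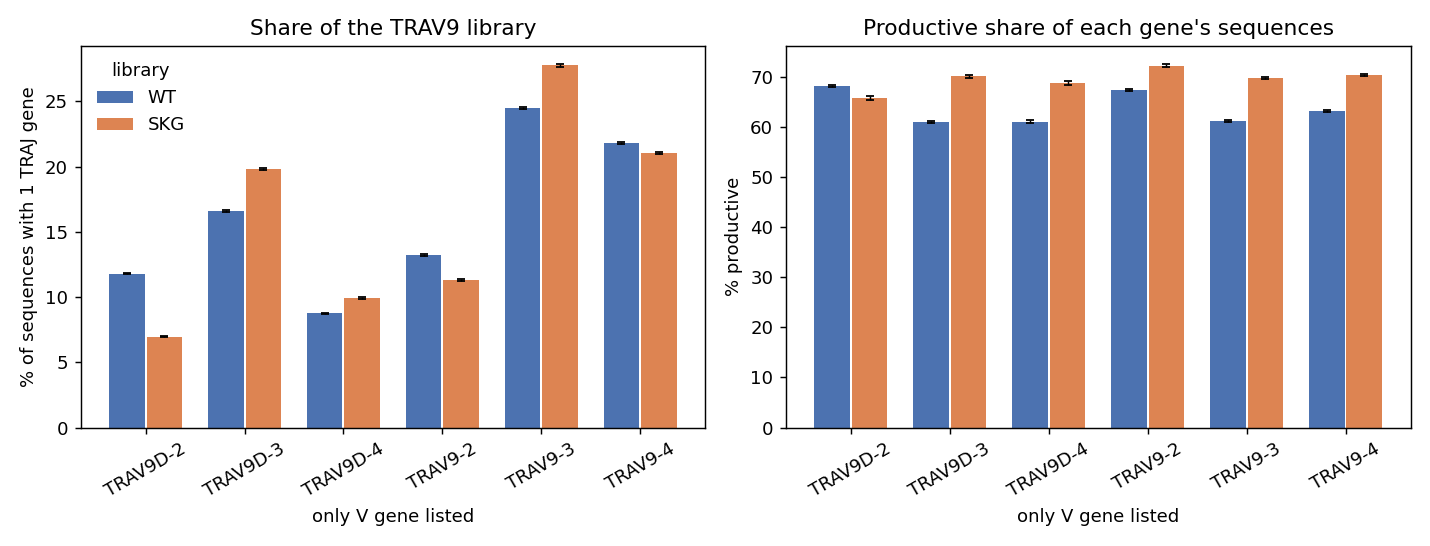
Share of each Trav9 gene in the Trav9 library (left, % of sequences with 1 TRAJ gene) and productive share of its sequences (right, %) in WT and SKG, 1 library each; error bars are 95% Wilson intervals. TRAV9D-2 went from 11.8 to 6.98% of the library, and its productive share was 68.2% in WT and 65.7% in SKG while it was higher in SKG for the other 5 genes.

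Productive joins were the majority of TRAV9D-2 sequences in both genotypes. The productive share was 68.2% in WT (127588 of 187178 sequences, 68.0 to 68.4%) and 65.7% in SKG (33917 of 51607, 65.3 to 66.1%). The difference of -2.44 percentage points passed a two-sided Fisher's exact test (p = 1.34e-25). The variance between libraries from one TRAJ segment to another exceeded that of counting 25.9-fold, and with this factor the standard error was 1.20 points (quasi-binomial test, p = 0.0411). The class and the TRAJ gene did not enter the choice of TRAV9D-2, although both are read from the sequences whose number did.

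The other 5 Trav9 genes moved in the opposite direction. Their productive share was higher in SKG by 4.92 points for TRAV9-2, 7.31 for TRAV9-4, 7.69 for TRAV9D-4, 8.54 for TRAV9-3 and 9.03 for TRAV9D-3. In WT, TRAV9D-2 had the highest productive share of the 6 genes, and in SKG it had the lowest. The change in TRAV9D-2 differed from that in each of the other 5 genes, by -0.34 to -0.51 on the log odds scale (variance-scaled test of the difference, Benjamini-Hochberg over 10 comparisons, adjusted p from 1.21e-12 to 5.55e-05). The WT library held 1587280 sequences and the SKG library 739330, and the part of this depth gap in the productive share was not tested.

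At single TRAJ segments the change went in both directions. Of 43 segments with at least 50 TRAV9D-2 sequences in each library, 21 had a lower and 22 a higher productive share in SKG, with a median change of 0.37 points. In the other genes the median change was 6.15 to 9.81 points, and 32 to 39 segments were higher in SKG. At 21 of 43 segments the change in TRAV9D-2 lay below that of all 5 other genes, and at 2 segments, TRAJ28 and TRAJ44, above all of them. Each of the other genes was the lowest at 3 to 8 segments.

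The largest drop in productive share was at TRAJ22, from 78.0% of 5735 sequences in WT to 59.1% of 961 in SKG. TRAJ52 went from 77.5% of 6978 to 59.1% of 1138 sequences, a segment where the other genes were higher in SKG by 5.02 to 16.6 points. At TRAJ15, one of the most used segments of the gene in both libraries, the productive share was 75.3% in WT and 62.2% in SKG. TRAJ13 went the other way, from 70.2% to 77.5%. TRAJ56, the segment most used in WT, barely changed, with 73.0% and 74.0%. Segments with a lower productive share in SKG were found in both the proximal and the distal region.

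TRAJ23 and TRAJ25 had few or no productive joins to TRAV9D-2. Of 2485 TRAJ23 sequences in WT, 110 were productive (4.43%, 3.69 to 5.31%), and of 630 in SKG, 2 were productive (0.317%, 0.0871 to 1.15%). The other Trav9 genes also had few productive TRAJ23 sequences, between 2.79 and 13.0% in WT and between 0.944 and 7.79% in SKG. The RefSeq segment has an open frame through its F-G-X-G motif in NCBIM37, shown here with the codons of the motif in capitals.
Traj23 (chr14:54815756-54815815): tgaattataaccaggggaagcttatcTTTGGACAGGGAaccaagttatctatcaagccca
TRAJ25 had 37 sequences in WT and 3 in SKG, and none of them was productive.

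TRAV9D-2 joined Traj segments along the whole array in both libraries, from TRAJ58 to TRAJ2. In WT, the most used segments of productive sequences were TRAJ56 with 6.16%, TRAJ15 with 5.45%, TRAJ9 with 4.46%, TRAJ52 with 4.24%, TRAJ53 with 4.11% and TRAJ13 with 3.99%. In SKG, they were TRAJ12 with 5.60%, TRAJ2 with 5.21%, TRAJ15 with 5.11%, TRAJ13 with 5.07%, TRAJ56 with 4.83% and TRAJ4 with 4.53%. TRAJ15, TRAJ13 and TRAJ56 stood in both lists. TRAJ52 and TRAJ53 of the WT list, and TRAJ9, which is itself distal, were replaced in SKG by the distal segments TRAJ12, TRAJ2 and TRAJ4.

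**Figure D2:**
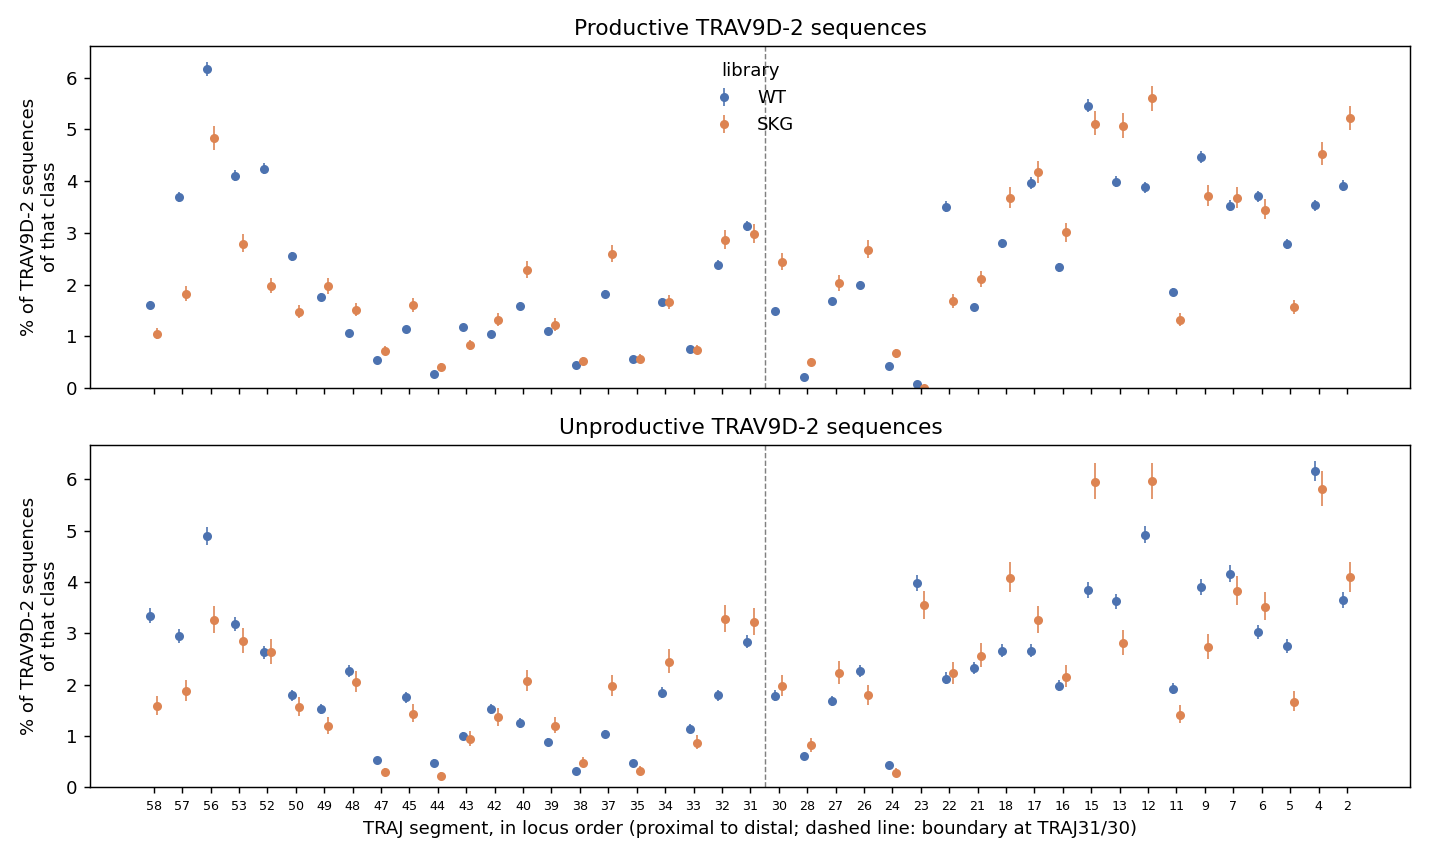
Share of each TRAJ segment (%) among productive (top) and unproductive (bottom) TRAV9D-2 sequences, in locus order from TRAJ58 to TRAJ2, in the WT and SKG libraries; bars are 95% Wilson intervals and the dashed line separates proximal from distal segments. Productive TRAJ56 to TRAJ50 are lower in SKG than in WT, TRAJ52 at 1.98 against 4.24%.

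By position, TRAJ20 to TRAJ11 and TRAJ10 to TRAJ1 held the largest shares of TRAV9D-2 joins in both libraries, over groups of 3 to 8 measured segments. Segments TRAJ61 to TRAJ56 held 11.5% of productive sequences in WT and 7.70% in SKG, and all 3 segments measured there were lower. TRAJ55 to TRAJ46 held 14.3% and 10.4%. In the middle, TRAJ45 to TRAJ36 held 8.59% in WT and 10.8% in SKG, with 7 of 8 segments higher. TRAJ35 to TRAJ31 differed little, with 8.51% and 8.82%. Towards the distal end, TRAJ30 to TRAJ21 went from 10.97 to 12.1% and TRAJ20 to TRAJ11 from 24.3 to 28.0%. The last group, TRAJ10 to TRAJ1, was 21.9% in WT and 22.2% in SKG.

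Among productive sequences, the groups with a higher share in SKG were thus mainly TRAJ45 to TRAJ36 and TRAJ20 to TRAJ11. The difference was smaller in TRAJ30 to TRAJ21, and TRAJ10 to TRAJ1 taken as a group was nearly equal. In unproductive sequences the first group was 11.2% in WT and 6.73% in SKG, TRAJ20 to TRAJ11 21.6% and 25.7%, and TRAJ10 to TRAJ1 23.6% and 21.7%. Across the 43 segments, Spearman's rho between the TRAJ number and the log2 ratio of SKG to WT share was -0.13 in TRAV9D-2 and -0.43 to -0.52 in the other 5 genes. These correlations are across segments that share 2 libraries and are descriptions.

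TRAJ1 to TRAJ30 are called distal here. The distal share of productive TRAV9D-2 sequences was higher in SKG by 5.08 points (Fisher's exact test, p = 2.51e-64), and in unproductive sequences by 2.34 points (p = 2.12e-08). In a quasi-binomial test scaled for the spread between segments of the change in productive share, the standard errors were 1.51 points (p = 0.000781) and 2.11 points (p = 0.268). That factor does not measure the spread of TRAJ usage. In a quasi-binomial test scaled instead for the spread of the segment ratios within each region, they were 2.39 points (p = 0.0338) and 2.28 points (p = 0.306). Only the productive difference thus exceeded the spread of the segment ratios, with p = 0.0338 in that second quasi-binomial test. Productive sequences had a mean TRAJ number of 27.5 with an SD of 18.5 among sequences in WT, and of 25.2 with an SD of 17.2 in SKG.

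Within the WT library, productive TRAV9D-2 sequences were less distal than unproductive ones, with a difference of -3.37 points (scaled standard error 1.24). In SKG the difference was -0.617 points (scaled standard error 2.28). The scaling factor came from the comparison of the 2 libraries. It does not measure the spread between segments within 1 library, so neither difference was tested against that spread. In WT, the distal segment TRAJ23 held 0.0862% of productive and 3.99% of unproductive sequences, while TRAJ22 went the other way with 3.50 and 2.12%. Against the other Trav9 genes, the change in distal share of TRAV9D-2 passed the quasi-binomial test of the difference in 0 of 5 comparisons, both at an adjusted and at an unadjusted p of 0.05. The differences ran from -0.18 to 0.05 on the log odds scale, and their 95% intervals reached from -0.37 to 0.21. These comparisons were scaled by the spread between segments of the change in productive share. Their p-values and intervals therefore do not cover the spread of TRAJ usage.

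Among single segments of TRAV9D-2, 4 of 43 (9.30%) had a share in SKG at least 1.5-fold that in WT, and 7 (16.3%) a share at least 1.5-fold lower. Over 215 segments of the other 5 genes, the corresponding figures were 7.91% and 10.2%, so segments with a higher share were about as frequent as in the background. The 4 higher segments were TRAJ44, TRAJ30, TRAJ28 and TRAJ24. The 7 lower ones were TRAJ58, TRAJ57, TRAJ52, TRAJ50, TRAJ23, TRAJ22 and TRAJ5, named here after their values were seen.

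The Traj segments with the lowest ratios among those above 1% are shown for their position and length, with the codons of the F-G-X-G motif, the conserved stretch that follows the CDR3, in capitals (NCBIM37, plus strand, RefSeq names). A stretch encoding F or W, G, any residue and G was found in 44 of 59 named Traj segments.
Traj57 (chr14:54778180-54778244): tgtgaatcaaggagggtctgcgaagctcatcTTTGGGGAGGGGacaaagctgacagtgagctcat
Traj52 (chr14:54784991-54785056): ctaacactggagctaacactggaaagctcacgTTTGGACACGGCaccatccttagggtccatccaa
Traj22 (chr14:54816923-54816982): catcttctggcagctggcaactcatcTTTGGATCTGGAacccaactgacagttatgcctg
Traj5 (chr14:54833452-54833513): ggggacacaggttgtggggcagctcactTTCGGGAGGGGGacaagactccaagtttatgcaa
Joins to TRAJ52 were 4.24% of productive TRAV9D-2 sequences in WT (4.13 to 4.35%) and 1.98% in SKG (1.84 to 2.14%), a log2 ratio of -1.10. TRAJ22 went from 3.50 to 1.67% (-1.07), TRAJ57 from 3.69 to 1.82% (-1.02) and TRAJ5 from 2.78 to 1.57% (-0.83). TRAJ57 and TRAJ52 lie 3.5 and 10.3 kb from the start of Traj61, and TRAJ22 and TRAJ5 42.2 and 58.8 kb. The lowest ratios thus lay in both the proximal and the distal region.

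The other Trav9 genes did not all follow. At TRAJ57 and TRAJ52 all 5 had a log2 ratio below 0, from -1.31 to -0.09 and from -0.73 to -0.22. At TRAJ22 the other genes ranged from -0.23 to 0.32, and at TRAJ5 from 0.06 to 1.06, so TRAV9D-2 lay below all of them at both segments. Both segments were named for their low ratio in TRAV9D-2, which favours this order. Over 43 segments TRAV9D-2 had the lowest ratio of the 6 genes at 6, and each other gene at 4 to 13. In unproductive sequences of TRAV9D-2, TRAJ57 (-0.65) and TRAJ5 (-0.72) were lower in SKG as well, but TRAJ52 (2.63% in both libraries) and TRAJ22 (2.12 and 2.22%) were not. For TRAJ52 and TRAJ22 the lower share was found in productive joins alone.

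The highest ratios were at the following segments, shown in the same way.
Traj40 (chr14:54797596-54797656): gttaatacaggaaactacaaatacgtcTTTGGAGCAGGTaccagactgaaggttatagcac
Traj37 (chr14:54801193-54801252): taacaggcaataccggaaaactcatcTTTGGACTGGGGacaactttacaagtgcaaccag
Traj30 (chr14:54809541-54809599): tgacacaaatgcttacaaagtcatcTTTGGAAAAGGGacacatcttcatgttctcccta
Traj12 (chr14:54826228-54826285): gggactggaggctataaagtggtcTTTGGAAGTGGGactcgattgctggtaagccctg
TRAJ30 went from 1.49% of productive sequences in WT to 2.44% in SKG (log2 ratio 0.71), TRAJ12 from 3.88 to 5.60% (0.53), TRAJ40 from 1.59 to 2.28% (0.53) and TRAJ37 from 1.83 to 2.60% (0.51). In the other genes, TRAJ30 ranged from 0.02 to 0.71, TRAJ12 from -0.02 to 0.42, TRAJ40 from -0.22 to 0.33 and TRAJ37 from 0.01 to 0.55. All 4 were also higher in unproductive TRAV9D-2 sequences, by 0.15 at TRAJ30, 0.28 at TRAJ12, 0.73 at TRAJ40 and 0.93 at TRAJ37. The intervals of the unproductive shares did not overlap at TRAJ12, TRAJ40 and TRAJ37. At TRAJ30 (1.78% in WT and 1.98% in SKG) they overlapped, as they did at TRAJ52 and TRAJ22.

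**Figure D3:**
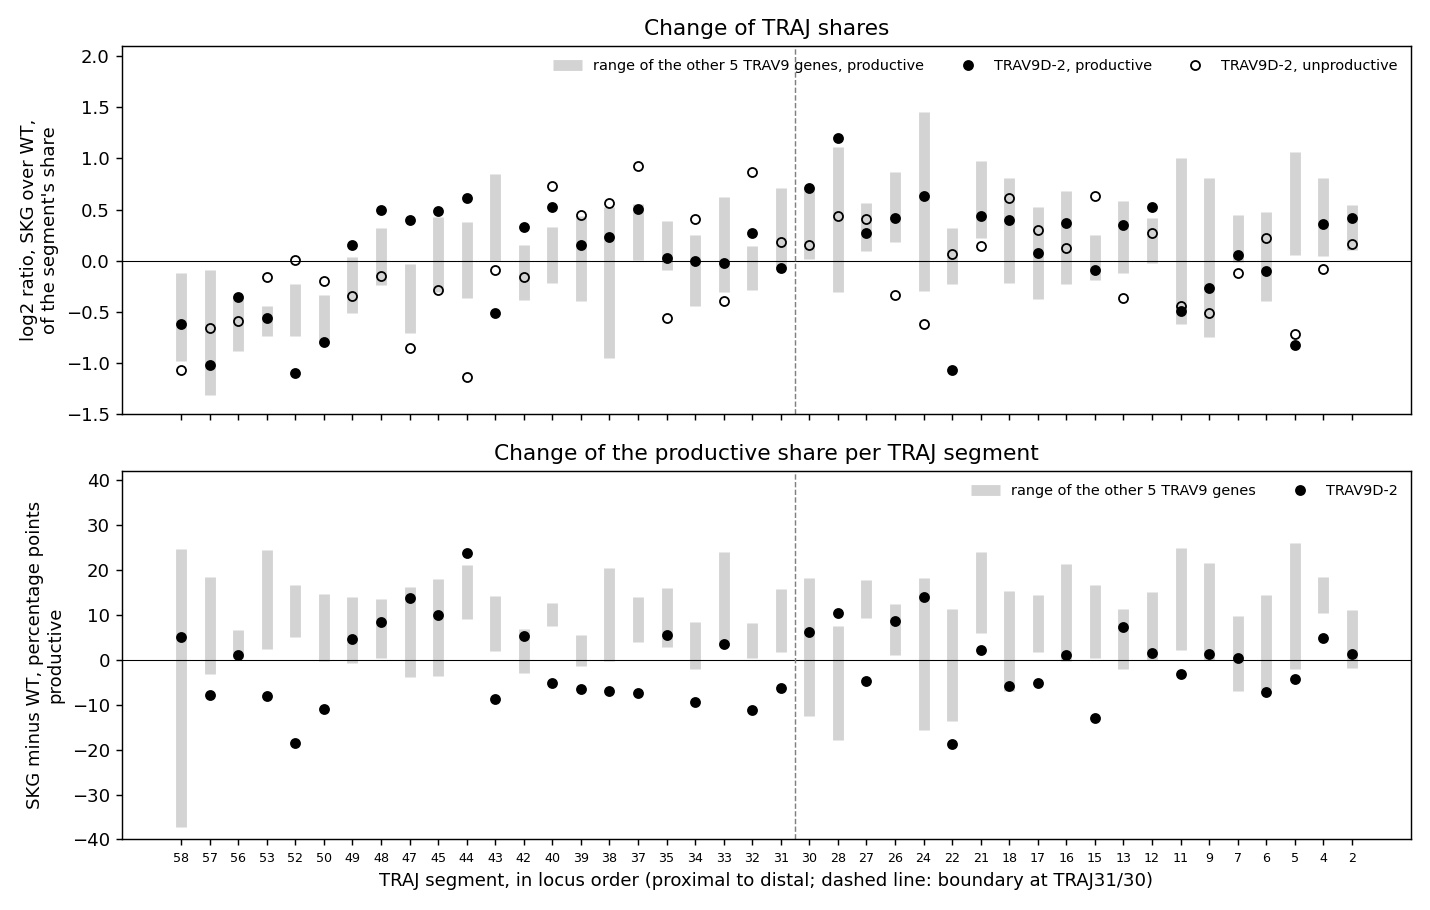
Top, log2 ratio of SKG to WT share for each TRAJ segment in productive (filled) and unproductive (open) TRAV9D-2 sequences; bottom, change of the productive share in percentage points; grey bars give the range of the other 5 Trav9 genes, and TRAJ23, with 2 productive sequences in SKG, is left out. TRAJ52 and TRAJ22 lie below the grey range in both panels, and TRAV9D-2 lies below the grey range of the productive share at 21 of 43 segments, TRAJ23 included in the count.

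Over all 43 segments, the log2 ratios of productive and unproductive TRAV9D-2 sequences had the same sign at 25 and a Spearman's rho of 0.27. The first measured segment, TRAJ58, held 1.61% of productive sequences in WT and 1.05% in SKG, and 3.34 and 1.59% of unproductive ones. At the last one, TRAJ2, productive sequences went from 3.90 to 5.21% and unproductive ones from 3.64 to 4.09%. At each of these segments both classes changed in the same direction.

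TRAJ18 and TRAJ33 are the segments of the invariant receptors of iNKT and MAIT cells, which pair them with other V genes. TRAJ18 was 2.80% of productive TRAV9D-2 sequences in WT and 3.68% in SKG, and 2.66 and 4.08% of unproductive ones. TRAJ33 was 0.752% of productive sequences in WT (0.706 to 0.801%) and 0.740% in SKG (0.654 to 0.837%), with overlapping intervals. Of unproductive sequences it was 1.15% in WT (1.06 to 1.23%) and 0.871% in SKG (0.744 to 1.02%), with intervals that did not overlap.

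TRAJ usage of TRAV9D-2 was most like that of its neighbours in the same array copy. The distance between 2 profiles, the share of sequences that would have to change TRAJ segment to make them equal, was 17.2% to TRAV9D-3 in WT and 14.3% in SKG, and Spearman's rho over the segments was 0.73 and 0.81. TRAV9D-4 came next with 24.4 and 19.9%. TRAV9-4 was the most distant in both libraries, with 42.3 and 43.3%. Between WT and SKG, the profile of TRAV9D-2 itself differed by 13.9%, more than that of TRAV9D-3 (8.65%), TRAV9D-4 (8.66%), TRAV9-3 (9.28%) and TRAV9-4 (11.3%) and less than that of TRAV9-2 (16.4%). TRAV9D-2 also had the fewest sequences in SKG, which adds counting error to its distance.

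IMGT/HighV-QUEST lists every V allele that matches a sequence equally well. Alleles 02 and 03 of TRAV9D-2 were listed together for 93.1% of its sequences in WT and 90.3% in SKG, so that these alleles were not told apart. Allele 01 alone was listed for 6.70% in WT (12534 sequences, 6.58 to 6.81%) and 9.56% in SKG (4934 sequences, 9.31 to 9.82%). The share of the whole library was 0.790% in WT and 0.667% in SKG for allele 01, a ratio of 0.845. For alleles 02 and 03 it was 10.98% and 6.304%, a ratio of 0.574. Both allele groups thus had a lower library share in SKG, with the lower ratio for alleles 02 and 03. These alleles made up most sequences of the gene, so most of its difference falls to them by number.

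The sequences assigned to allele 01 also differed in TRAJ usage. Their distal share among productive sequences was 51.7% in WT and 54.5% in SKG, below that of alleles 02 and 03 (57.5 and 63.1%). Their productive share was 67.6% in WT and 66.5% in SKG, a difference of -1.02 points against -2.58 for alleles 02 and 03. In WT, a further 153 sequences listed allele 02 alone, of which 45.8% joined TRAJ21 and 21.6% were productive.

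**Figure D4:**
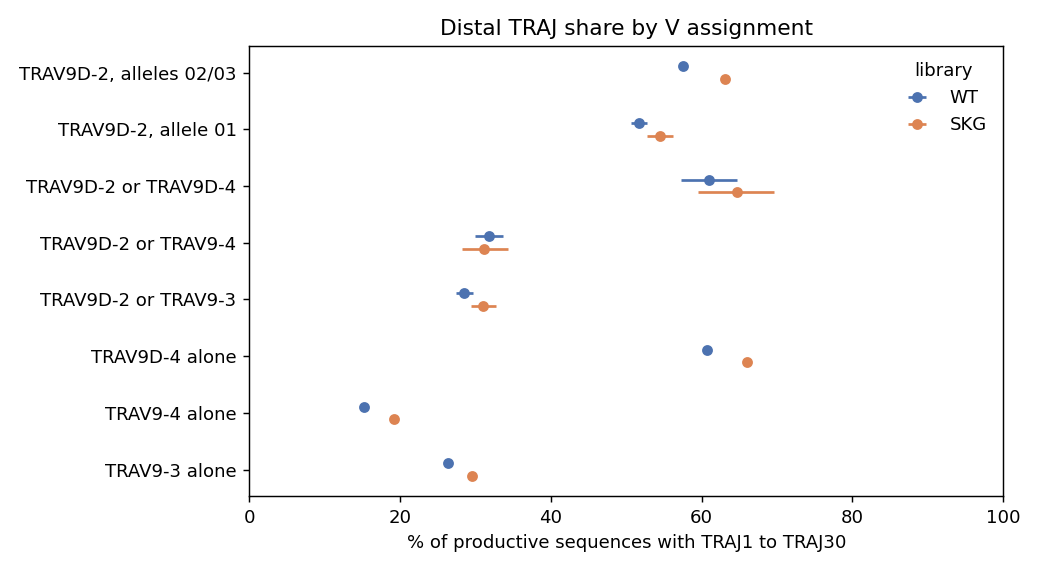
Distal share (% of productive sequences with TRAJ1 to TRAJ30) by V assignment in the WT and SKG libraries, for TRAV9D-2 by allele, for sequences that list TRAV9D-2 with 1 other V gene, and for these genes alone; bars are 95% Wilson intervals. Sequences listing TRAV9D-2 with TRAV9-3 or TRAV9-4 lie near 30%, far below TRAV9D-2 alone.

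Some sequences matched TRAV9D-2 and another V gene equally well and were left out of the values above. They were 7.92% of all sequences listing TRAV9D-2 in WT and 11.1% in SKG. Most listed TRAV9-3, with 10708 sequences in WT and 4394 in SKG, and 9857 and 3986 of these listed alleles 02 and 03 together. Their distal share was 28.5% in WT and 31.03% in SKG, near that of TRAV9-3 alone (26.3 and 29.6%). Those listed with TRAV9-4, 3711 in WT and 1344 in SKG and nearly all allele 01, had a distal share of 31.8 and 31.2%, between TRAV9-4 alone (15.2 and 19.2%) and allele 01 of TRAV9D-2. Those listed with TRAV9D-4, 1044 and 494 sequences, had a distal share of 61.02 and 64.7%. Sequences shared with TRAV9-3 or TRAV9-4 thus carried a more proximal TRAJ usage than sequences of TRAV9D-2 alone.

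The most listed TRAJ alleles of TRAV9D-2 sequences were the same in both libraries at TRAJ31, TRAJ32 and TRAJ35. TRAJ32 was allele 02 in 4110 of 4111 sequences in WT and in all 1552 in SKG, and TRAJ35 was allele 02 in 99.5 and 99.2%. TRAJ31 was assigned to allele 02 alone in 70.8% in WT and 79.8% in SKG.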

How the data were processed

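TCRα sequences were read from the Trav9 amplicons of pre-selection DP thymocytes of WT and SKG mice, 1 library each. Per the study's methods, the authors assembled the read pairs with MiXCR, cut off primers with cutadapt 1.13, dropped exact duplicates and had IMGT/HighV-QUEST assign the genes with its default settings. The submitters' processing notes name mm10, and its role is not given in the sources used here. The deposited lists hold 1 row per distinct sequence with an identifier, which is no measurement, and other fields for class, V and J assignment; no read counts, junctions or molecular identifiers were used. Shares hence refer to distinct sequences, not to reads or cells, and an error in a copy makes it a separate sequence.

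Sequences with 1 TRAJ gene and TRAV9D-2 as the only V gene were counted by class, TRAJ segment and allele. Totals of 1587280 (WT) and 739330 (SKG) sequences put the share that 3 counts allow at 0.000189% and 0.000406%. Shares have 95% Wilson intervals. Class and region were compared with Fisher's exact tests, also with the variance multiplied by the dispersion (Pearson chi-square over degrees of freedom) from a quasi-binomial logistic fit with segment and library terms, using a normal approximation over sequences, or by the dispersion of the segments' library ratios within each region. Changes were compared with those of the 5 other Trav9 genes with at least 1000 sequences in each library. Named were the 6 most used segments per library, the 4 highest and 4 lowest ratios among segments above 1%, the first and last segment with at least 50 sequences, TRAJ18 and TRAJ33. The members, lists and tests were chosen with earlier results of these data known.

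Alternatives were other classes, V and J assignment rules, region boundaries, variances, folds and minimum counts. Locus positions and sequences came from NCBIM37 with GENCODE annotation, named through RefSeq (GRCm38.p6, names only). The calculations were tested on simulated data. Python 3.11.15, numpy 2.4.6, pandas 2.3.3, scipy 1.17.1, statsmodels 0.14.6 and matplotlib 3.10.9 were used.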

Additional observations from a re-analysis of the deposited data

Results flagged for a closer look

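The change of the productive share from WT to SKG differed between TRAV9D-2 and each of the other 5 Trav9 genes, by a test of the difference itself. On the log odds scale, the change in TRAV9D-2 minus that in the other gene was -0.34 for TRAV9-2, -0.49 for TRAV9-3, -0.44 for TRAV9-4, -0.51 for TRAV9D-3 and -0.45 for TRAV9D-4. Each comparison rests on the same TRAV9D-2 sequences and on 1 library per genotype.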

How the results depend on the processing

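The library share of TRAV9D-2 was lower in SKG under all 7 alternatives run, with differences of -4.81 points as reported, -6.14 in productive and -2.29 in unproductive sequences, -4.95 with sequences that listed other V genes too, -4.69 without allele 01 and -4.99 over sequences with 1 V gene. The distal share in unproductive sequences, 2.34 points higher in SKG, lost its call under both scaled quasi-binomial variances (p = 0.268 and p = 0.306), and the other alternatives for the distal and productive shares kept direction and call. The difference in mean TRAJ number was -1.45 in unproductive sequences and -1.85 with sequences that listed other V genes, against -2.31. At a fold of 2 instead of 1.5, 5 segments passed in place of 11. The share of allele 01 among sequences with exactly 1 allele was higher in SKG by 0.791 points, by 0.272 in productive sequences, and by 2.86 both by the first allele listed and over every allele list. With every sequence taken as independent, the change in distal share differed from that of 3 other genes in place of 0. The profile distance to TRAV9D-3 was 12.8% (WT) and 13.2% (SKG) in unproductive sequences. Of 90 alternatives for 18 named segments, 8 at 6 segments changed the sign of the log2 ratio. In unproductive sequences these were TRAJ52 (-1.10 to 0.0025) and TRAJ22 (-1.07 to 0.067), both past 1.5-fold as reported, and TRAJ15 (-0.09 to 0.63), TRAJ13 (0.35 to -0.36) and TRAJ4 (0.36 to -0.08). TRAJ15 also changed with both classes together (0.13), and TRAJ33, near 0 at -0.02, with sequences that listed other V genes (0.04) and without allele 01 (0.0041). The causes were not tested. The alternatives without allele 01, the scaled variances of the unproductive and within-region comparisons, the unscaled comparison between genes and the class alternatives of profiles and named segments were chosen after seeing the data. No paired analysis was possible because each genotype had 1 library of the amplicon. Depth limits rare joins, such as the 2 productive TRAJ23 sequences in SKG.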
